A study of Mus musculus with 12 samples.

Results

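The genes described here encode the interferon regulatory factors of the mouse other than Irf9: Irf1, Irf2, Irf3, Irf4, Irf5, Irf7 and Irf8. Every probe annotated to these 7 symbols was taken, which gave 13 of the 45281 probes on the array: 5 for Irf1, 3 for Irf3 and 1 for each of the others. A total of 11 of these probes, from 5 of the 7 genes, were tested, while Irf4 and Irf8 were detected on no array. Mouse embryonic fibroblasts, a culture of connective tissue cells, carried the genotype Sirt2+/+ (wild type) or Sirt2-/- (knockout). Sirt2 encodes an NAD-dependent deacetylase. Both genotypes were studied without treatment and after a 4 h exposure to mouse interferon beta (IFNβ) at 2500 IU/ml, on 3 single-colour Illumina bead arrays per group, 12 in all. Separate cultures or embryos are not named for the 3 samples of a group, so the p-values reflect a spread that may be technical.

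Interferon regulatory factors are transcription factors that share a DNA-binding domain and recognise repeats of the bases GAAA, the core of the interferon-stimulated response element (ISRE). Type I interferon, bound to its receptor, activates the complex ISGF3, which holds STAT2 and IRF9 and acts through the ISRE. Another element of interferon-induced genes is the gamma-activated sequence (GAS). Several of the factors are themselves products of interferon-induced genes. IRF3, IRF5 and IRF7 lie at another point of the pathway, since they are activated by phosphorylation after the cell has sensed viral or bacterial material, and IRF3 and IRF7 then switch on the interferon genes.

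The promoters of 4 members are shown because they carry the motif matches that set the members apart, or, for Irf7, because the member that rose most held none. The sequences are RefSeq promoters on GRCm38.p6, from 250 bases before to 50 bases after an annotated start, written 5′ to 3′ along the gene. They lie at chr11:53769764-53770063 (Irf1, plus strand), chr8:46739495-46739794 (Irf2, plus strand), chr7:141266375-141266674 (Irf7, minus strand) and chr8:120736108-120736407 (Irf8, plus strand). Capitals mark matches to the ISRE core, which is GAAA followed by GAAA after a gap of 2 bases, or the GAS core TTCNNNGAA, searched on both strands.
Irf1: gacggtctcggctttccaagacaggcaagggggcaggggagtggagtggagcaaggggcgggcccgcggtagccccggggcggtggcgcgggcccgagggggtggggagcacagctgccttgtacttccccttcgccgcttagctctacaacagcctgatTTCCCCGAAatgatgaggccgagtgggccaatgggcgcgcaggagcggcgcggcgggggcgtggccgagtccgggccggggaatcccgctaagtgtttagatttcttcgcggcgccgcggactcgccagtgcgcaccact
Irf2: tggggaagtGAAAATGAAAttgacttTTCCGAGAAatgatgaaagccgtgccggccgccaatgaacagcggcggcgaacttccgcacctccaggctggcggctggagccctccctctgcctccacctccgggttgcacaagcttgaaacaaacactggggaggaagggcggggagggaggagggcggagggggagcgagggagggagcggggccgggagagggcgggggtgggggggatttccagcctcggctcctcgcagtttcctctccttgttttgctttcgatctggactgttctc
Irf7: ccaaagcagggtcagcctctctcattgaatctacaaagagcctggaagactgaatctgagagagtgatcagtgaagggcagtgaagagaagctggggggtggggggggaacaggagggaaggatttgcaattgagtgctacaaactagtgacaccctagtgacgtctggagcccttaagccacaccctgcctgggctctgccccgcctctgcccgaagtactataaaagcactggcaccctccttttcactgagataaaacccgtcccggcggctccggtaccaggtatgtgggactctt
Irf8: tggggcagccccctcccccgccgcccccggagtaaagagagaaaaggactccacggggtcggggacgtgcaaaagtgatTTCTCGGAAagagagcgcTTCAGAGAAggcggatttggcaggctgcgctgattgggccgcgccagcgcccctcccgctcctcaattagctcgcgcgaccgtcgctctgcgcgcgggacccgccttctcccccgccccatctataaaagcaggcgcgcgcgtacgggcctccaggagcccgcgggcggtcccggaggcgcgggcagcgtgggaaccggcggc
The Irf1 promoter held a GAS core, TTCCCCGAA, that begins at -90 from the start. The Irf2 promoter held an ISRE core, GAAAATGAAA, at -241 and a GAS core, TTCCGAGAA, at -224. The Irf8 promoter held 2 GAS cores, TTCTCGGAA at -171 and TTCAGAGAA at -153. The windows of Irf3, Irf4, Irf5 and Irf7, and those at the other annotated starts of Irf1 and Irf8, held neither core. The Irf5 window (chr6:29526375-29526674, plus strand) lies inside the span of the gene, which begins at 29526130, so the bases before that were not searched. Of 32851 RefSeq promoters of the same length, 3.44% held the ISRE core and 8.3% the GAS core. No match overlapped another, and a match describes letters in this window, not a bound site.

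On the 12 arrays, 17091 to 18155 probes were detected, and arrays of a group correlated across probes, which are not independent replicates, with Pearson's r of 0.993 to 0.996. Sirt2 (chr7:28766752-28788665) had log2 levels of 8.72 to 8.94 in the untreated wild-type arrays and 8.76 to 9.23 in the treated ones, against 6.04 to 6.66 and 5.86 to 6.37 in the knockout, with no overlap. The knockout stood lower by a log2 difference of −2.41 ± 0.18 untreated (SE, limma adjusted p = 2.41e-07; −2.81 without the 2 untreated knockout arrays described next) and −2.86 ± 0.18 under IFNβ (adjusted p = 6.62e-08). The labels do not place the deletion, so the probe may lie outside it. All 11 fibroblast markers were detected on every wild-type array and 9 to 11 on each knockout array, and 8 of the 11 were lower in the knockout in both genotype comparisons, against 24.2% and 23.2% of all genes. Among these 8, Postn and Dcn passed the detection filter only through the wild-type groups, so their calls are not independent of the filter. Another marker, Col1a1, named after its value was seen, was higher in the treated knockout by 0.65 (adjusted p = 0.0106). The counts were the same without the 2 arrays, against 18.4% and 22.9%. Their summed linear level was 40471.9 to 47473.7 and 37503.1 to 38323.4 in untreated and treated wild-type arrays, and 22571.5 to 24012.5 and 20454.4 to 20960.2 in the knockout. Their part in the genotype differences below was not tested. In such bulk RNA, fewer cells of a type and less RNA per cell cannot be told apart. Untreated knockout arrays 2 and 3 stood apart from array 1. A set of 20 interferon-induced genes, chosen without the untreated knockout arrays and holding no member of the family described here, stood in arrays 2 and 3 at medians of 11.2% and 14.3% of the level of treated knockout cells, counted on the linear scale from array 1. In arrays 2 and 3 of the untreated wild type the medians were 0.798% and 0.230%. The set was also chosen for a low mean level in the untreated wild type, so these low values were partly fixed in advance. Another 28 genes, expressed in both wild-type groups and near background in the treated knockout, stood at −0.00461%, 6.71% and 4.44% of their wild-type level in untreated knockout arrays 1, 2 and 3. Tests that rest on these arrays are given with and without arrays 2 and 3, while correlations use all 12. Without them the untreated knockout is a single array, assumed to vary like the arrays of the other groups.

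Irf7 (chr7:141263183-141266499) encodes the factor that, once activated, amplifies production of interferon alpha. Its log2 level, given here and below after background correction and quantile normalization, came to 4.47, 4.91 and 4.36 on the wild-type arrays without IFNβ, where the probe was not detected. It was 10.48, 10.15 and 10.42 after IFNβ. All treated wild-type arrays thus lay far above the untreated ones. The rise was at least 42.9-fold (log2 difference 5.77 ± 0.55, SE, n = 3 arrays per group, limma adjusted p = 9e-06). The bound is taken against the background level, since the untreated signal could not be measured.

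In the knockout, Irf7 was at 4.38 in untreated array 1, not detected, and at 6.81 and 7.47 in arrays 2 and 3, where it was. After IFNβ the knockout arrays had 10.04, 9.64 and 9.45. The treated arrays again lay above all untreated ones, but the untreated arrays spread over more than 3 log2 units. The difference was 3.49 ± 0.55 on the log2 scale (limma adjusted p = 0.00119). Undetected array 1 entered it at its background value, so it gives no exact fold. Against array 1 alone the rise was at least 27.6-fold. The probe passed the detection filter only through groups in which it was high.

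Irf1 (chr11:53770014-53778374) encodes an activator first known from the interferon beta promoter and is itself induced by interferons. Its brightest probe had log2 levels of 9.75, 9.96 and 9.60 in untreated wild-type cells and 13.20, 12.94 and 13.09 after IFNβ. In the knockout the levels were 9.91, 11.004 and 11.45 untreated and 13.22, 13.04 and 12.94 treated. The treated groups covered nearly the same range, and each lay above the untreated arrays of its genotype. Untreated knockout array 1 lay within the wild-type range, with arrays 2 and 3 above it. The rise was 9.88-fold in wild type (log2 difference 3.31 ± 0.28, limma adjusted p = 3.43e-06). In the knockout it was 4.86-fold (2.28 ± 0.28, adjusted p = 0.000159), and 3.16 ± 0.18 on the log2 scale without untreated arrays 2 and 3 (adjusted p = 1.82e-07).

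**Figure D1:**
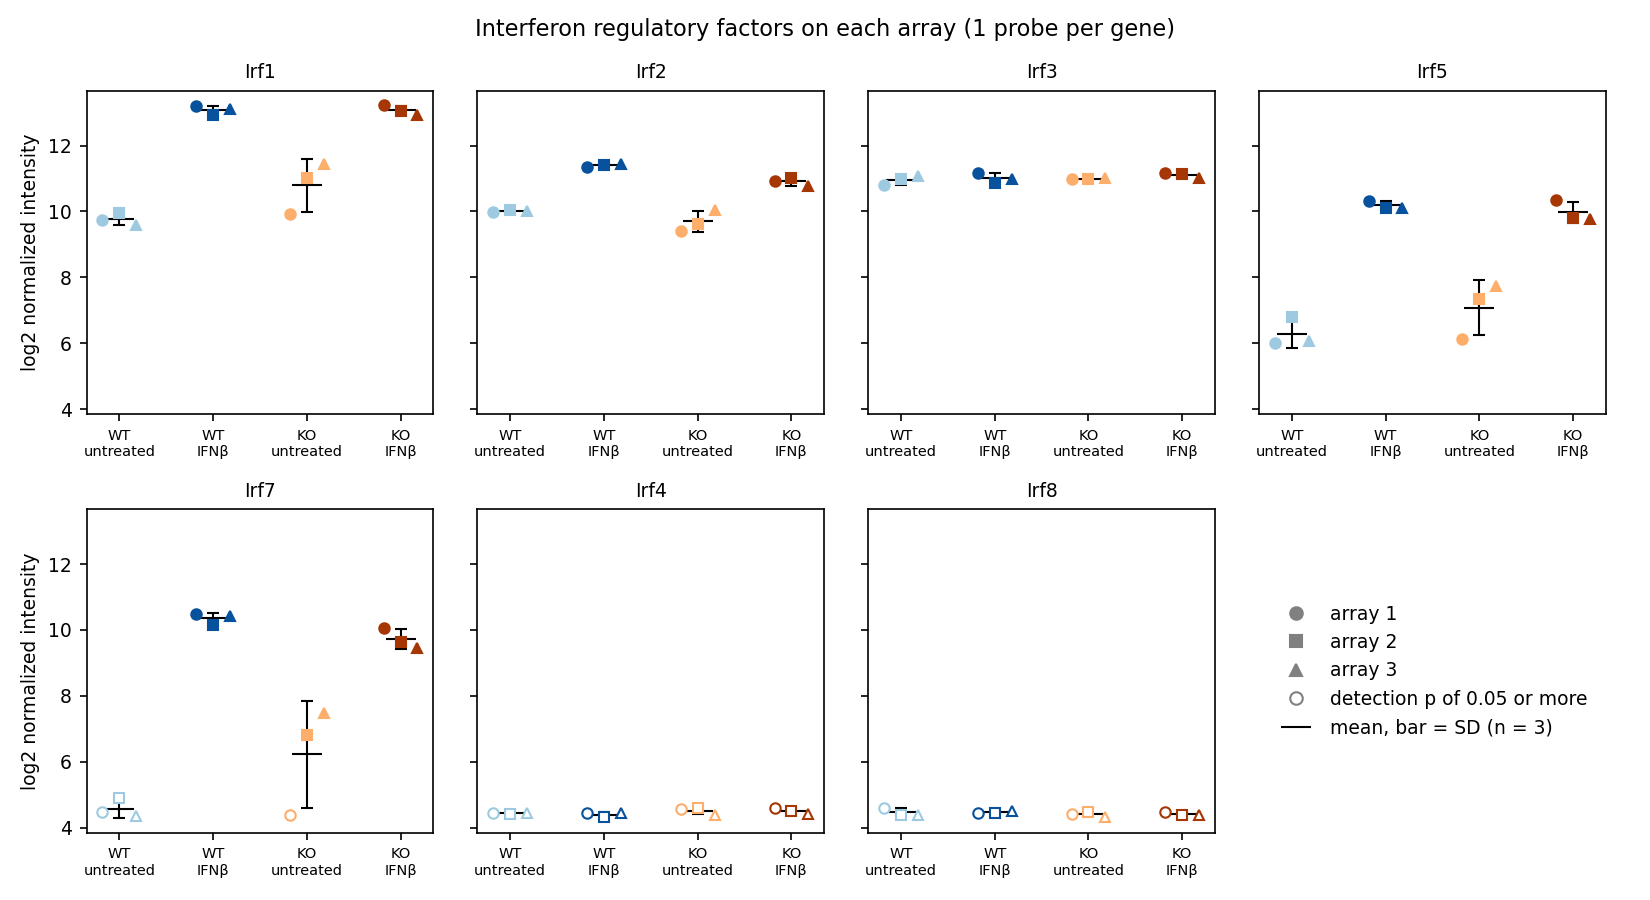
Log2 normalized intensity (y axis) of 1 probe per gene, the brightest for Irf1 and Irf3, on each array, by group (x axis). Circles, squares and triangles are arrays 1, 2 and 3, open symbols have a detection p of 0.05 or more, and bars give the mean and SD of 3 arrays. Irf1, Irf2, Irf5 and Irf7 were higher after IFNβ in both genotypes, Irf3 stayed between 10.80 and 11.16 on all arrays, and every symbol of Irf4 and Irf8 is open.

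All 5 Irf1 probes rose in both genotypes when each kept probe was tested on its own. For the 4 probes detected on every array the log2 differences ran from 3.29 to 3.70 in wild type and from 2.28 to 2.86 in the knockout (3.14 to 3.65 without untreated arrays 2 and 3). The other probe, ILMN_2624100, was kept only through the treated groups. It was detected on 0 of 3 untreated wild-type arrays and 1 of 3 untreated knockout arrays, and its rise was at least 4.14-fold and at least 3.45-fold (3.47-fold without the 2 arrays), taken against a floor: each untreated array at its own level or at the lowest level detected on it, whichever was higher. Across the 12 arrays the 10 pairs of Irf1 probes had Pearson's r between 0.954 and 0.995. These points share their arrays and fall into treated and untreated sets, so r describes agreement of the probes only.

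**Figure D2:**
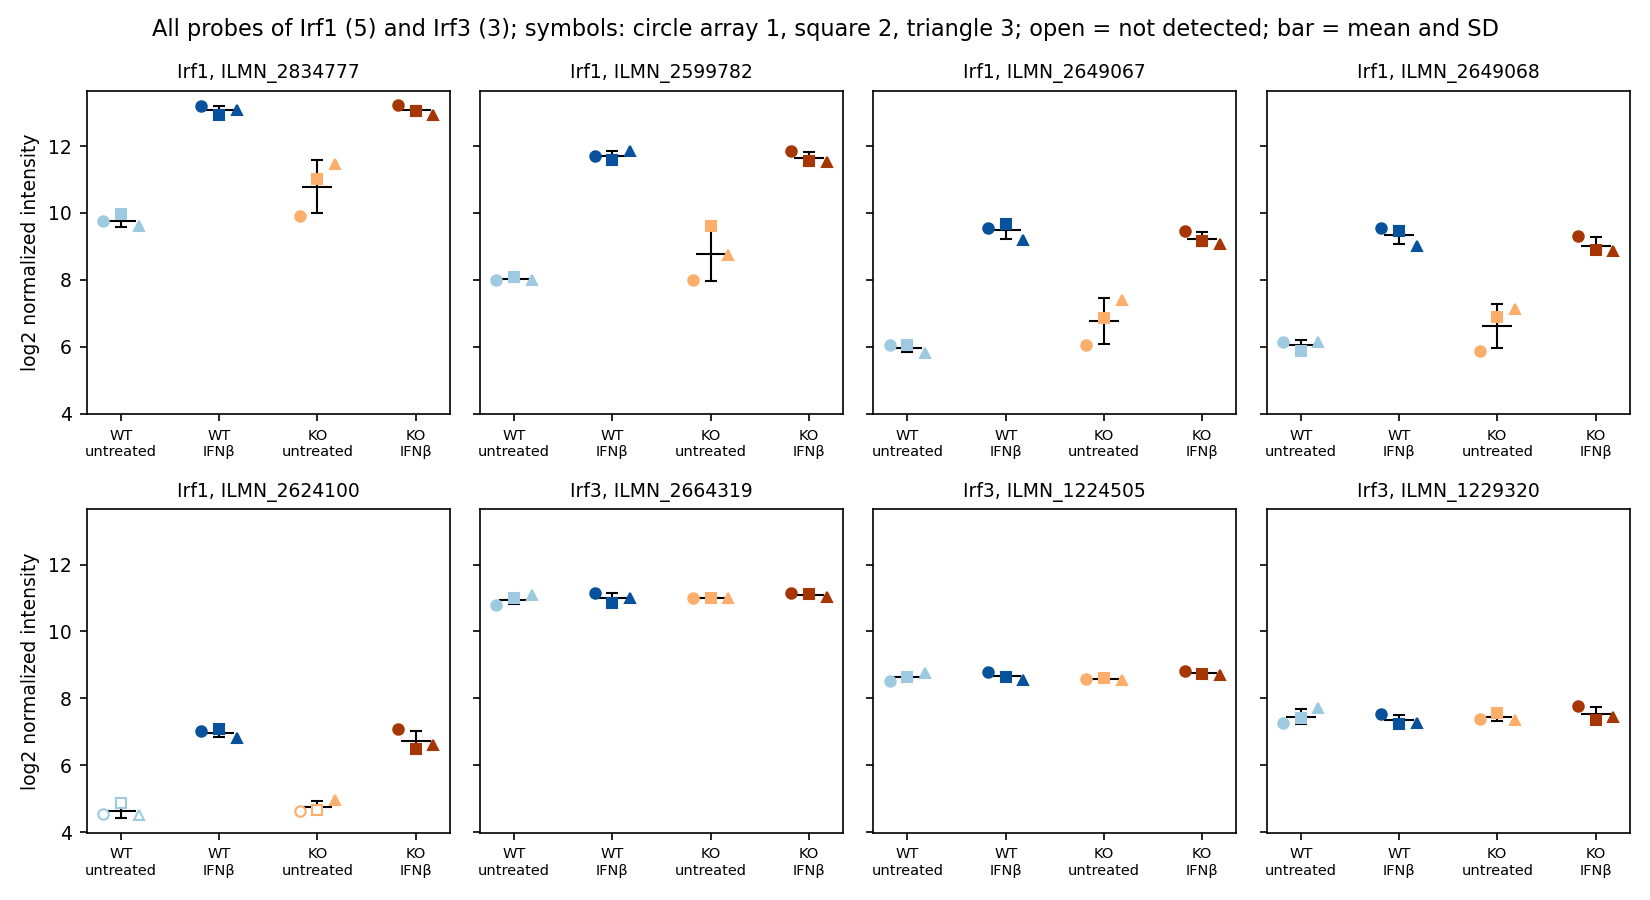
Log2 normalized intensity (y axis) of the 5 Irf1 and 3 Irf3 probes on each array, by group (x axis), with the symbols, open points and bars of the plot with 1 probe per gene. All Irf1 probes are higher in treated arrays, by 3.29 to 3.70 in wild type for the 4 detected on every array, and the 3 Irf3 probes move by −0.11 to 0.05 there.

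Irf5 (chr6:29526130-29541869) encodes a factor that acts below Toll-like receptors and MyD88 on inflammatory cytokine genes. Its log2 level was 6.0004, 6.80 and 6.06 in untreated wild-type arrays and 10.33, 10.10 and 10.12 in treated ones. The knockout had 6.14, 7.35 and 7.74 untreated and 10.35, 9.79 and 9.78 treated. Treated and untreated arrays did not overlap in either genotype, and untreated knockout arrays 2 and 3 were again the highest of the untreated arrays. Irf5 rose 14.9-fold in wild type (log2 difference 3.90 ± 0.33, limma adjusted p = 3.8e-06) and 7.45-fold in the knockout (2.90 ± 0.33, adjusted p = 9.73e-05). Without untreated knockout arrays 2 and 3 the knockout difference was 3.83 ± 0.30 (adjusted p = 3.13e-06).

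Irf2 (chr8:46739745-46847458) encodes a factor that binds the same sites as IRF1 and represses many of its targets. Its levels were close together within most groups, at 9.97, 10.05 and 10.02 in untreated and 11.36, 11.41 and 11.43 in treated wild-type arrays. In the knockout they were 9.42, 9.62 and 10.05 untreated and 10.93, 11.02 and 10.78 treated. Every treated array lay above every untreated one, and the treated knockout arrays lay below all treated wild-type arrays. The rise was 2.61-fold in wild type (log2 difference 1.38 ± 0.14, limma adjusted p = 1.28e-05) and 1.21 ± 0.14 on the log2 scale in the knockout (adjusted p = 8.38e-05; 1.49 ± 0.15 without untreated arrays 2 and 3, adjusted p = 2.55e-05).

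Of the 7 genes, then, 4 of the 5 tested rose in wild type and the same 4 rose in the knockout, and none fell. Over all 12128 genes tested, 6.27% were called higher and 7.57% lower in wild type. In the knockout 4.30% were called higher and 2.31% lower (3.37% and 0.651% without untreated arrays 2 and 3). The median log2 difference of the 5 tested members was 3.31 in wild type, against −0.06 over all genes. In the knockout it was 2.28 against −0.05 (3.16 against −0.05 without the 2 arrays). A single spread per gene was estimated over the 12 arrays, so the errors of the wild-type response also carry that of the untreated knockout.

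Irf3 (chr7:44997648-45002848) encodes the factor that is present before infection and is activated by TBK1. Its brightest probe had levels of 10.80, 10.99 and 11.08 in untreated and 11.16, 10.86 and 10.99 in treated wild-type arrays. The knockout had 10.990, 10.997 and 11.004 untreated and 11.16, 11.12 and 11.02 treated. The wild-type groups overlapped, and the knockout groups were apart by 0.02. Neither difference passed the test, at 0.05 for wild type (95% interval −0.18 to 0.28, limma adjusted p = 0.829) and 0.10 for the knockout (−0.13 to 0.33, adjusted p = 0.648). None of the 3 Irf3 probes was called in any of the 5 comparisons, and 0 of the 3 was called without untreated knockout arrays 2 and 3. Their differences lay between −0.11 and 0.05 in wild type and between 0.09 and 0.17 in the knockout. The 3 pairs of Irf3 probes had Pearson's r of 0.696 to 0.780 over the 12 arrays.

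Irf4 (chr13:30749233-30766981) and Irf8 (chr8:120736358-120756694) encode factors best known from lymphocytes and myeloid cells. Neither probe reached a detection p under 0.05 on any of the 12 arrays. The lowest detection p was 0.165 for Irf4 and 0.175 for Irf8. Before any correction, the Irf4 intensities ran from 98.4 to 113 and those of Irf8 from 100.5 to 119.6. The medians over all probes ran from 111 to 119.9 per array. Of 12 leukocyte markers on the array, 9 were likewise detected nowhere, among them Ptprc, Itgam, Adgre1 and Cd74. Csf1r and Cd79b were each detected on 1 array and Cd3e on 8. The summed level of the 12 was 306 to 314 in untreated and 304 to 348 in treated wild-type arrays, and 264 to 279 and 276 to 292 in the knockout. With 9 of the 12 detected nowhere, these sums are mostly background and do not measure leukocytes. Cd3e, the only 1 of the 12 that was tested, was lower in the knockout in both genotype comparisons. It passed the detection filter only through the wild-type groups, in which it was high, so these calls are not independent of the filter. The GAS cores of the Irf8 promoter, printed above, thus stood before a gene that was not detected with or without IFNβ.

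The genotypes were next compared without interferon. With all arrays, Irf1 had a higher level in the knockout by its brightest probe, with a log2 difference of 1.02 ± 0.28 (limma adjusted p = 0.00836). That was the largest difference of its 5 probes. Tested each on its own, they ran from 0.12 to 1.02, and 3 of the 5 were called higher. Irf7, undetected in the untreated wild type, was at least 2.45-fold higher (1.64 ± 0.55 on the log2 scale, adjusted p = 0.0234). These 2 calls of 5 tested compare with 27.1% of all genes called higher and 24.2% lower in that comparison. Irf5 stood at 0.79 ± 0.33 (adjusted p = 0.0639), Irf2 at −0.32 ± 0.14 (adjusted p = 0.0701) and Irf3 at 0.04 (adjusted p = 0.771). The untreated groups of the genotypes overlapped for all 5. The median over the 5 was 0.79, against 0.05 over all genes.

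Without untreated knockout arrays 2 and 3 these values moved. Irf1 stood at 0.14 (adjusted p = 0.583), Irf5 at −0.15 (adjusted p = 0.738) and Irf7, detected in neither group then, at −0.19 (adjusted p = 0.582), while Irf3 kept 0.03 (adjusted p = 0.894). Irf2 was lower in the knockout by a log2 difference of −0.59 ± 0.15 (adjusted p = 0.0069), as 18.4% of all genes were, and 0 of the 5 was higher, against 19.5% of all genes. The members' median was −0.15, against 0.06 over all genes. Single arrays also decided calls here. The call on Irf7 was lost without untreated knockout array 2 (1.35, adjusted p = 0.088) or 3 (1.02, adjusted p = 0.11), and without untreated wild-type array 1 (adjusted p = 0.0635) or 3 (adjusted p = 0.0681). Without untreated knockout array 1 the difference was 2.56 (adjusted p = 1.39e-06). Irf2 passed without untreated knockout array 3 alone (−0.50, adjusted p = 0.00322). Irf5 passed without untreated knockout array 1 (adjusted p = 0.000827) or untreated wild-type array 2 (adjusted p = 0.028).

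Under IFNβ, Irf2 was lower in the knockout by a log2 difference of −0.49 ± 0.14 (1.40-fold lower, limma adjusted p = 0.00927), and the groups did not overlap, with a gap of 0.34. Irf7 stood at −0.64 ± 0.55 (adjusted p = 0.354), although its lowest treated wild-type array lay 0.11 above its highest treated knockout array. This estimate uses no untreated array, but its error does. With untreated knockout arrays 2 and 3 left out, the error was 0.18 and Irf7 passed (adjusted p = 0.01, 95% interval −1.03 to −0.25). It also passed with only the treated groups in the fit (adjusted p = 0.00901) and without untreated knockout array 1 (adjusted p = 0.0173). Irf2 kept its call without the arrays (adjusted p = 0.00182).

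Irf1 stood at −0.01 (95% interval −0.61 to 0.60, adjusted p = 0.984) in that comparison, Irf5 at −0.21 (−0.93 to 0.51, adjusted p = 0.633) and Irf3 at 0.10 (−0.13 to 0.32, adjusted p = 0.478), with overlapping groups. The 5 Irf1 probes, tested each on its own, lay between −0.32 and −0.01, and none was called. Lower calls were made for 1 of the 5 members with all arrays and for 2 without the untreated arrays, against 23.2% and 22.9% of all genes. None of the 5 was called higher, against 27.1% and 26.6%. The members' median was −0.21 in both fits, against 0.06 over all genes.

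**Figure D3:**
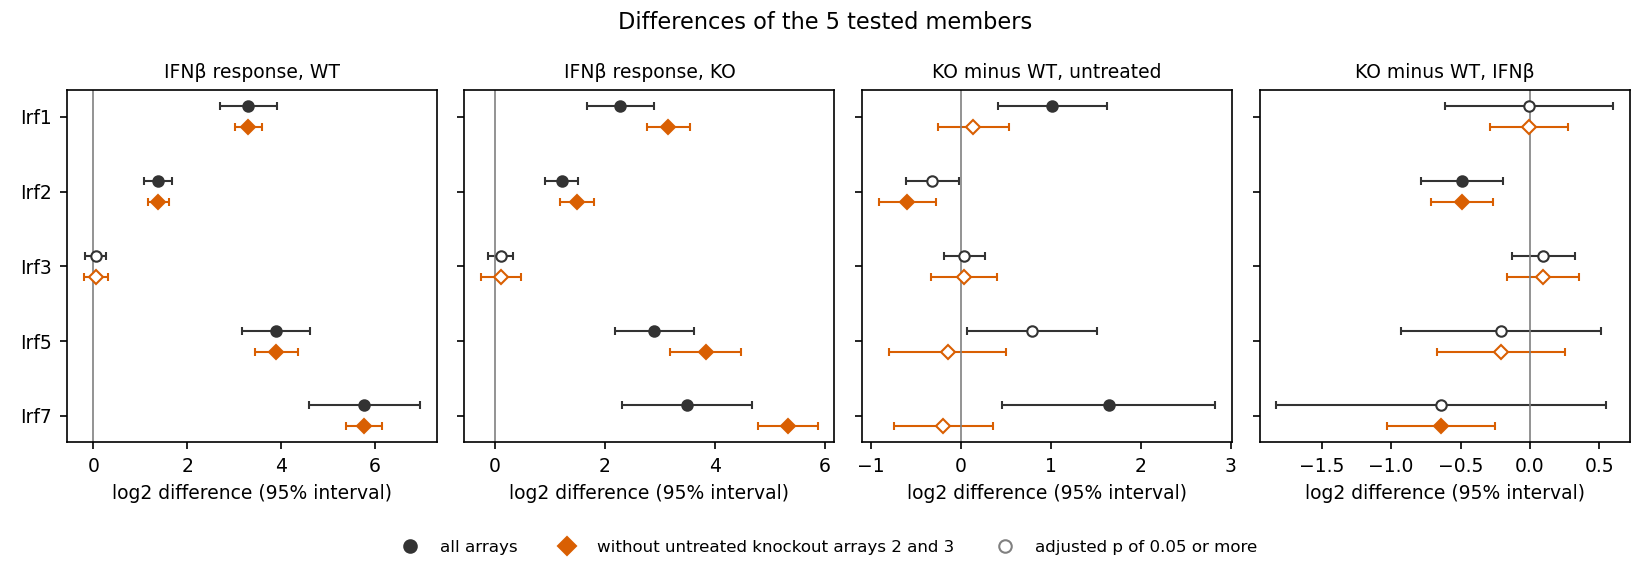
Log2 differences (x axis, with 95% intervals) of the 5 tested members (y axis) in 4 comparisons, with all arrays (circles) and without untreated knockout arrays 2 and 3 (diamonds). Filled symbols have an adjusted p under 0.05. The untreated genotype difference of Irf7 was 1.64 with all arrays and −0.19 without the 2, and that of Irf2 under IFNβ was −0.49 in both.

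The difference of the 2 responses was tested directly. With limma, none of the 5 members passed, and 2 had an unadjusted p under 0.05. Knockout minus wild-type response was −2.28 for Irf7 (adjusted p = 0.385), −1.02 for Irf1 (adjusted p = 0.516) and −0.999 for Irf5 (adjusted p = 0.673), while Irf2 stood at −0.17 (adjusted p = 0.985) and Irf3 at 0.05 (adjusted p = 0.995). The untreated wild-type level of Irf7 was not detected, and with the floor in its place its difference was −1.93. Over all genes, 0.503% were called in either direction. Without untreated knockout arrays 2 and 3 the value of Irf7 rested on background in both genotypes and has no size, and the values were −0.15 for Irf1, −0.06 for Irf5, 0.10 for Irf2 and 0.06 for Irf3. None of the 5 passed, none had an unadjusted p under 0.05 (0 of 5), and 0.338% of all genes were called. Without untreated knockout array 1, in contrast, Irf1 (−1.46, adjusted p = 0.00217), Irf5 (−1.47, adjusted p = 0.039) and Irf7 (−3.20, adjusted p = 3.97e-05, from the same undetected wild-type level) passed. The knockout response and the untreated genotype comparison share the 3 untreated knockout arrays, so their values for a member are not independent.

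The induced members were then placed on the scale of the 20 other interferon-induced genes, with untreated array 1 of the genotype at 0% and its treated arrays at 100% on the linear scale. Irf7 stood at 11.01% in untreated knockout array 2 and 18.8% in array 3. Irf5 stood at 9.68% and 15.1%. Irf2 stood at 8.12% and 30.4%. The first 2 genes lay within the ranges of the 20 genes, 3.04% to 19.6% in array 2 and 2.51% to 27.8% in array 3, and Irf2 lay above the range in array 3. The 20 genes were chosen for a low untreated wild-type level and a larger rise than that of Irf2, so its percentages are not on equal terms. Its log2 level in untreated knockout array 3 was 10.05, against 9.97 to 10.05 in the untreated wild type.

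The Irf1 probes differed in the order of the 2 arrays. The brightest had 14.2% in array 2 and 24.0% in array 3, ILMN_2649067 had 9.02% and 19.3%, ILMN_2649068 had 12.9% and 17.1%, and ILMN_2624100 had 0.843% and 8.08%. The remaining probe, ILMN_2599782, had the opposite order, with 17.6% in array 2 and 5.77% in array 3. Its log2 levels were 7.99, 9.60 and 8.73 in untreated knockout arrays 1, 2 and 3, against 7.98, 8.07 and 7.996 in the untreated wild type. In untreated wild-type arrays 2 and 3 all probes of Irf1, Irf2, Irf5 and Irf7 lay between −2.06% and 6.28%. The highest value was that of ILMN_2624100, which was not detected there. What set arrays 2 and 3 apart was not tested.

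**Figure D4:**
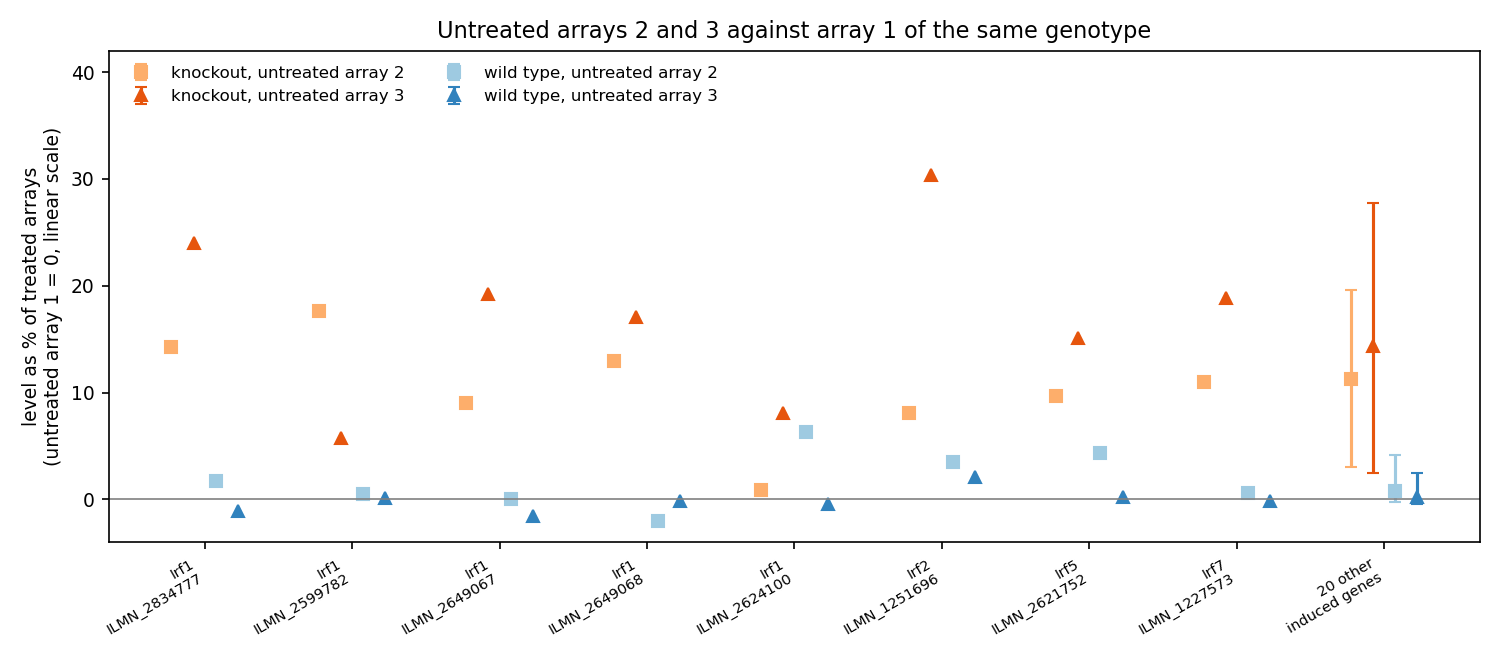
Level of each induced member probe, and of 20 other induced genes (median, bar from lowest to highest), in untreated arrays 2 (squares) and 3 (triangles), as a percentage of the treated arrays of the same genotype with untreated array 1 at 0 (y axis, linear scale). Knockout arrays are orange and wild-type arrays blue. The wild-type points lie between −2.06% and 6.28%, and in the knockout array 3 lies above array 2 for all probes but ILMN_2599782.

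The genes whose levels ran most like each member were found among 9722 other named genes by Pearson's r over the 12 arrays. The arrays fall into treated and untreated sets, so r mostly measures a like response, and it is a description. For Irf7 these were Trim21 (0.997), Isg20 (0.995), Cd274 (0.995), Irf1 (0.994) and H2-T23 (0.994). Irf1 ran most like Trim21 (0.997), Parp12 (0.995), Irf7 (0.994), Trex1 (0.994) and Clec2d (0.994), and Irf5 most like Gm12250 (0.998), Trex1 (0.996), Dhx58 (0.994), Isg20 (0.994) and Clec2d (0.992). Irf2 had other neighbours: Vwa5a (0.989), Ube2l6 (0.982), Shisa5 (0.980), Tut7 (0.974) and Ifit2 (0.974). No gene came that close to Irf3, whose highest values were 0.866 for Olfr703 and 0.851 for Slc12a4.

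Genes that act around the factors were counted in lists. Their counts stand beside shares of all genes called, which were 6.27% higher and 7.57% lower in the wild-type response and 4.30% and 2.31% in the knockout response. Of the genes of interferon signalling, namely factors, the receptor and its kinases, 6 were tested, and 4 rose in wild type and 3 in the knockout, with none lower. Stat2 rose by 4.26 ± 0.53 (limma adjusted p = 9.95e-05) and Irf9, the DNA-binding partner in ISGF3, by 3.21 ± 0.22 (adjusted p = 8.23e-07) in wild type. In the knockout they rose by 2.83 (adjusted p = 0.00462) and 2.80 (adjusted p = 1.04e-05). Without untreated arrays 2 and 3 the knockout rise of Irf9 was 3.46 (adjusted p = 8.43e-08). That of Stat2, undetected in array 1, was then at least 18.2-fold (adjusted p = 5.38e-07). Stat3 rose as well, by 0.52 and 1.09 (1.36 without the 2 arrays), and the receptor chain Ifnar2 rose in wild type by 0.46. Median log2 differences over the list were 0.49 and 0.60 (0.73 without the 2 arrays) in these responses, beside −0.06 and −0.05 over all genes. Between untreated genotypes 1 of the 6 was higher in the knockout and 2 lower, against 27.1% and 24.2% of all genes (0 and 2 without untreated arrays 2 and 3, against 19.5% and 18.4%). Under IFNβ 0 was called with limma, against 27.1% higher and 23.2% lower (1 and 1 without the arrays, against 26.6% and 22.9%).

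Of 17 genes that sense nucleic acids or activate IRF3 and IRF7, 14 were tested. In wild type 7 rose and in the knockout 6 (4 without untreated arrays 2 and 3), with none lower, and the medians were 0.36 and 0.22 (0.25 without the arrays). In wild type, Ddx58, which encodes the RNA sensor RIG-I, rose by 5.05 ± 0.44 from a level detected on 1 of 3 untreated arrays (adjusted p = 4.36e-06), the receptor gene Tlr3 at least 7.97-fold (adjusted p = 4.41e-07), the RNA sensor gene Ifih1 at least 3.90-fold (adjusted p = 1.28e-05) and the adaptor gene Myd88 by 1.91 ± 0.19 (adjusted p = 1.45e-05). Between untreated genotypes 4 of the 14 were higher in the knockout and 2 lower, against 27.1% and 24.2% of all genes (1 and 0 without untreated arrays 2 and 3, against 19.5% and 18.4%). Under IFNβ, 5 were lower and 1 higher, against 23.2% and 27.1% of all genes (6 and 1 without the arrays, against 22.9% and 26.6%). Tlr3 stood at −0.98 ± 0.22 (adjusted p = 0.00203), Azi2, an adaptor of TBK1, at −0.70 ± 0.13 (adjusted p = 0.000703), the ubiquitin ligase gene Traf6 at 0.53 ± 0.12 (adjusted p = 0.00285) and Ticam1, the adaptor gene of TLR3, at −0.53 ± 0.20 (adjusted p = 0.0373), with a signal detected on 1 of 3 treated knockout arrays. Tlr3 also passed for the difference of the responses (adjusted p = 0.0417), but not without untreated knockout arrays 2 and 3 (adjusted p = 0.135). Its untreated wild-type level was not detected, so the test rests on a background value. With the floor in its place the difference was −1.13.

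Of 16 partners, co-regulators and turnover factors of the family, 12 were tested. In wild type 4 rose and 1 fell, and in the knockout 4 rose (3 without untreated arrays 2 and 3) and 0 fell. The medians were −0.03 and −0.17 (−0.14 without the arrays). Trim21, an E3 ubiquitin ligase that acts on several of the factors, rose by 5.59 ± 0.46 in wild type (adjusted p = 2.7e-06) and Batf2, a leucine-zipper partner of IRF1, at least 6.99-fold (adjusted p = 2.7e-06). Between untreated genotypes 5 of the 12 were higher in the knockout and 2 lower, against 27.1% and 24.2% of all genes (3 and 2 without untreated arrays 2 and 3, against 19.5% and 18.4%). Under IFNβ the counts were 4 and 2, against 27.1% and 23.2% (4 and 3 without the arrays, against 26.6% and 22.9%). Batf3, a further leucine-zipper factor that pairs with members of the family, was at least 3.88-fold higher in the untreated knockout (adjusted p = 1.99e-06), and in array 1 alone at least 4.81-fold (adjusted p = 2.53e-05). Under IFNβ, where 1 of 3 wild-type arrays detected it, it was at least 3.30-fold higher against the floor (adjusted p = 6.61e-06). Trim21 was higher in the untreated knockout by 1.49 ± 0.46 (adjusted p = 0.0156), but stood at −0.08 without arrays 2 and 3 (adjusted p = 0.772). Crebbp, which encodes the coactivator CBP, was higher there by 1.13 ± 0.37 (adjusted p = 0.0212; 1.64 without the arrays, adjusted p = 0.0186). Irf2bp2, a corepressor that binds IRF2, was lower by −1.18 ± 0.16 untreated (adjusted p = 3.82e-05; −1.23 without the arrays, adjusted p = 0.00165) and by −0.97 ± 0.16 treated (adjusted p = 0.000193), alongside the lower Irf2 of treated cells. The related gene Irf2bpl was lower in the treated knockout by −1.13 ± 0.12 (adjusted p = 6.87e-06). Irf2bp1, also related and named after its value was seen, went the other way. It was higher in the treated knockout by 0.38 ± 0.10 (adjusted p = 0.0075).

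Targets of the factors were read last. Of 15 genes bound or controlled by IRF1 in the mouse, 12 were tested, and 10 rose in wild type (median 3.79) and 11 in the knockout (median 3.30, or 4.72 without untreated arrays 2 and 3), with none lower. In wild type, Gbp2, a guanylate-binding GTPase gene, rose at least 308-fold (adjusted p = 1.32e-05), the immunoproteasome gene Psmb8 at least 25.0-fold (adjusted p = 3.26e-05) and the cytokine gene Il15 by 4.89 ± 0.49 (adjusted p = 1.37e-05). Between untreated genotypes 5 of the 12 were higher in the knockout and 2 lower, against 27.1% and 24.2% of all genes (2 and 3 without these arrays, against 19.5% and 18.4%). Under IFNβ, 1 of the 12, Vcam1, was lower in the knockout (−0.55 ± 0.12, adjusted p = 0.00221), and none was higher, against 23.2% and 27.1% of all genes. Without untreated arrays 2 and 3, 4 were higher and 3 lower, against 26.6% and 22.9%.

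Of 8 genes controlled by IRF3 and IRF7, 6 were tested, and 5 rose in each genotype (4 in the knockout without untreated arrays 2 and 3). The medians were 5.55 in wild type and 2.81 in the knockout (4.12 without the arrays). The interferon genes Ifnb1 and Ifna4 were not detected in any whole group and were not tested. Between untreated genotypes 4 of the 6 were higher in the knockout and 0 lower, against 27.1% and 24.2% of all genes (3 and 1 without the arrays, against 19.5% and 18.4%). Under IFNβ 1 was higher and 1 lower, against 27.1% and 23.2% (2 and 1 without the arrays, against 26.6% and 22.9%). Ifit2 was lower in the treated knockout by −1.69 ± 0.36 (adjusted p = 0.00159). Ccl5, a chemokine gene, was higher in the knockout by 4.50 ± 0.31 untreated (adjusted p = 1.39e-07; 4.28 without the arrays, adjusted p = 1.88e-05) and 3.93 ± 0.31 treated (adjusted p = 3.87e-07). Isg15, which encodes a ubiquitin-like protein, was higher in the untreated knockout by 4.00 ± 0.59 (adjusted p = 8.95e-05; 1.96 without the arrays, adjusted p = 5.19e-06). The difference of the responses of Isg15 was −3.87 (limma adjusted p = 0.0727), and −1.83 without untreated knockout arrays 2 and 3. Cxcl10, which encodes a chemokine and is on both target lists, was undetected in the untreated wild type and at least 35.2-fold higher in the untreated knockout (adjusted p = 6.17e-07). Against array 1 alone the bound was 11.6-fold (adjusted p = 9.5e-09). It rose less in the knockout (adjusted p = 0.0039; without untreated arrays 2 and 3, adjusted p = 6.33e-06). With the floor as the untreated wild-type level the difference of the responses was −4.52, and −2.92 without the arrays. Treated knockout cells were not called lower for Cxcl10: under IFNβ its genotype difference was 0.62 (adjusted p = 0.292).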

How the data were processed

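RNA of 12 mouse embryonic fibroblast samples, 150 ng each per the labels' protocols, was biotin-labelled and hybridised to 1 array per sample. The authors deposited linear intensities with no background subtraction or scaling, each with a detection p-value against the array's negative controls, per the file headers. The log2 values of the authors' other table differed by at most 0.000639 from log2 intensities after quantile normalization.

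Intensities were background-corrected with normexp, using negative controls inferred from the detection p, given an offset of 16 and quantile-normalized (neqc, limma 3.58.1, R 4.3.3). Of 45281 probes, 34885 have 1 gene symbol, 18 several and 10378 none. Kept were 17837 probes with a detection p under 0.05 on each array of at least 1 group. Among the genes named from lists, Tlr3, Ifih1, Batf2 and Psmb8 were kept only through the treated groups. Batf3 was kept only through the knockout groups. The markers Cd3e, Postn and Dcn were kept only through the wild-type groups. Each was high in those groups, so these calls are not independent of the filter. The brightest kept probe stood for a symbol, and each probe without a symbol counted alone, giving 12128 genes, 9723 of them named. A mean per group was fitted with limma, with empirical Bayes moderation, and two-sided tests were made of 5 contrasts, with Benjamini-Hochberg adjustment over all 12128 genes and a threshold of 0.05. Genotype values give the knockout relative to wild type. A gene undetected throughout a group has a lower bound as its fold: the bright group's mean log2 level against the mean, over the dim arrays, of the higher of the dim probe and the lowest probe detected. Marker sums are of linear normalized levels. The fit was checked on simulated data. The number of arrays limits the precision, and no slide or scan is recorded in the tables. The members and the 7 lists were chosen with earlier results of these data known (1 listed signalling gene is not reported here), as were the 2 untreated arrays left out. Named were the members, genes from among the 4 of each list and comparison with the largest differences past the threshold, and the 5 genes most like each member. Col1a1 and Irf2bp1 were named in addition, after their values were seen.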

Additional observations from a re-analysis of the deposited data

How the results depend on the processing

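Across 24 alternatives, 12 of which left out 1 array each, the 4 rises in each genotype were called in every one. The count of members called between untreated genotypes, 2 with all arrays, was 4 with an offset of 50, 1 with no filter on dim probes, 1 with only the groups of the contrast, 1 without untreated knockout arrays 2 and 3, and 1 to 3 with an array left out. Under IFNβ it was 1, and 2 with only those groups or without the 2 arrays (1 to 2 with an array left out). For the difference of the responses it was 0, and 0 to 3 with an array left out. Signs also turned. Irf1 under IFNβ, by its brightest probe, ran from −0.085 to 0.056 with an array left out. Irf2 in the difference of the responses was 0.10 without the 2 arrays and ran from −0.31 to 0.0051. Irf3 was −0.016 in the wild-type response and −0.015 between untreated genotypes with the mean of its probes (−0.031 to 0.12 and −0.039 to 0.10 with an array left out), and −0.019 in the difference of the responses with median scaling (−0.017 to 0.13). Irf5 and Irf7 between untreated genotypes were −0.15 and −0.19 without the 2 arrays, against 0.79 and 1.64 with all. The causes were not tested. Irf7 rose by 3.66 in wild type with the deposited log2 values, which have no background subtracted, against 5.77. Between untreated genotypes Irf7 stood at 0.69 with them and 1.04 with an offset of 50, against 1.64. It lost its call with no filter (adjusted p = 0.0793), with a trended robust variance (0.0742) and with only those groups (0.0665). Irf5 gained a call with an offset of 50 (0.0487), median scaling (0.0475) and array weights (0.0231), and Irf2 with the deposited values (0.046), an offset of 50 (0.0491) and a trended robust variance (0.0321).

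Over all genes, the knockout response had 522 higher and 280 lower calls, but 466 and 886 with median scaling. Its lower count was 433 with array weights, 176 with only its groups, 79 without the 2 arrays and 118 to 330 with an array left out. In the wild-type response 918 were lower, 519 without treated wild-type array 1 and 589 without untreated wild-type array 1. Between untreated genotypes 3281 were higher and 2934 lower, and 2894 to 3300 and 2656 to 2957 with an array left out. Under IFNβ the genotype comparison had 3288 higher and 2818 lower, and 2854 to 3422 and 2482 to 2899 with an array left out. For the difference of the responses 14 were higher and 47 lower: 25 with the deposited values and 25 and 72 with an offset of 50, 9 higher with no filter, 26 and 89 with array weights, 25 lower without the 2 arrays, and 7 to 21 and 31 to 154 with an array left out. Whether replicate numbers pair the samples was not settled. Of 12 same-numbered pairs, 4 had deviations correlated over 0.1 (−0.115 to 0.176). Within each genotype, every untreated and treated pair correlated best with its own number, though weakly. Between genotypes this held for only some pairs. With the replicate number as a block the counts of members called were 4 and 4 for the responses, 2 and 1 between genotypes and 0 for the difference of the responses, as without it. The slide as a block was not run, since no table gives it. Sirt2 was lower in the knockout in all 24.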
